A study of Mus musculus with 3 samples.

Results

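The genes described here encode 37 enzymes and carriers of the tricarboxylic acid (TCA) cycle with pyruvate entry (20 genes), the pentose phosphate pathway (7) and mitochondrial fatty acid oxidation (10). They were taken by gene symbol from a table of 24346 symbols, and all 37 were found. RNA was sequenced from 3 kinds of myeloid cell isolated from the mouse colon: Gr-1+ CD11b+ cells, labelled as neutrophils and monocytes, CD64- dendritic cells (DC) and CD64+ macrophages. All came from healthy BALB/c mice, and the sources used here give neither their age nor whether animals were pooled. Each population had 1 library, so no difference below has a replicate check and no p-value is given. In a bulk sample, a smaller share of cells of one type and less RNA per cell cannot be told apart.

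The TCA cycle oxidises acetyl groups to carbon dioxide in the mitochondrion and passes electrons to the respiratory chain. The pentose phosphate pathway takes glucose 6-phosphate through an oxidative branch, which makes the NADPH that phagocytes spend on the oxidative burst and on redox defence, and a non-oxidative branch, which interconverts sugars. Fatty acid oxidation imports acyl groups by the carnitine shuttle and shortens them in repeated rounds to acetyl-CoA. Neutrophils are known for a high reliance on glycolysis and the pentose phosphate pathway and for few mitochondria, whereas macrophages and DC can use mitochondrial oxidation more.

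Levels are in FPKM, which divides the fragments of a gene by its transcript length and by the library's mapped fragments, so levels of different genes can be set side by side. A gene was called higher or lower by a size rule, a difference of log2(FPKM + 1) of 2 or more with at least 10 FPKM in the higher library. Of 17329 genes compared, the rule called 3.65% higher and 6.28% lower in the Gr-1+ CD11b+ library than in DC, 1.41% higher and 3.41% lower in it than in macrophages, and 1.53% higher and 2.31% lower in DC than in macrophages. The steps between low FPKM values gave depths of about 2543000 mapped fragments for the Gr-1+ CD11b+ library, 9079000 for DC and 6892000 for macrophages. Genes that myeloid cells should not use set a silent-gene level, the 95th percentile of 1452 olfactory and vomeronasal receptor genes, of 9.69 FPKM in the Gr-1+ CD11b+ library, 0.611 in DC and 3.24 in macrophages. Of the 37 genes, 29 exceeded that level in the Gr-1+ CD11b+ library, 37 in DC and 35 in macrophages. The 8 at or under it in the Gr-1+ CD11b+ library were Pcx, Aco1, Suclg2, Rpia, Cpt2, Acadm, Acads and Hadha, and in macrophages they were Pcx and Rpia.

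The markers of the isolated cells followed the labels in part. All 12 neutrophil markers lay above the silent-gene level in the Gr-1+ CD11b+ library, summing to 178220 FPKM, against 1785 in DC and 4683 in macrophages, where 11 and 10 did and Camp was at 0 in both. The 13 macrophage markers summed to 2875 FPKM in the Gr-1+ CD11b+ library, 3514 in DC and 29529 in macrophages, with 9, 13 and 13 above that level. The 11 dendritic cell markers summed to 105.7, 1529 and 473 FPKM in the same order, with 4, 11 and 9 above it. Most of the sum in DC came from Ccr7, at 27.5, 1004 and 107 FPKM. Of the 11, 8 had a higher value in DC than in macrophages, and 3, Xcr1, Batf3 and Itgax, had a lower one. B and plasma cell markers were highest in DC, where 12 of 12 lay above the level and summed to 24325 FPKM, against 678 in the Gr-1+ CD11b+ library (5 of 12) and 1438 in macrophages (11 of 12). The 11 epithelial markers summed to 1566 FPKM in the Gr-1+ CD11b+ library, 786 in DC and 470.5 in macrophages, with 9, 11 and 9 above the level. No B cell, epithelial, macrophage or dendritic cell marker in these lists was at 0 in any library. The 7 monocyte markers summed to 1709, 1671 and 3499 FPKM in the Gr-1+ CD11b+ library, DC and macrophages (5, 7 and 7 above it), the 10 T, NK and innate lymphoid markers to 35.4, 105.5 and 85.0 (0, 10 and 4), the 9 stromal and endothelial markers to 335, 365.5 and 200.5 (5, 8 and 6), and the 8 mast cell and eosinophil markers to 34.3, 133 and 25.4 (1, 6 and 3), with Epx at 0 in each. These values differ between the libraries in every comparison below, and their part in the enzyme values was not tested.

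The sequences upstream of 4 genes are shown, since they include neighbouring steps of 1 pathway with opposite orders of values. Pgd and Taldo1 had their highest FPKM in the Gr-1+ CD11b+ library, and Pgls and Idh2 their lowest. Each is the longest part of the 250 bases before the annotated start that lies outside annotated exons, from RefSeq on GRCm38.p6, read 5′ to 3′ on the gene's strand. Capitals mark matches on either strand to CCAAT (the CCAAT box), GGGCGG (the GC box), CACGTG (the E-box) or TGACNNNGC (the core of the antioxidant response element). For G6pdx the 250 bases lie in annotated exons. Only 29 bases are therefore given, around a TGACNNNGC match that begins 57 bases before the RefSeq start used here. These 29 bases lie inside the gene as annotated in GENCODE M21, which starts at 74429194 on the minus strand, and not upstream of it.
Pgd (chr4:149166772-149166955, minus strand): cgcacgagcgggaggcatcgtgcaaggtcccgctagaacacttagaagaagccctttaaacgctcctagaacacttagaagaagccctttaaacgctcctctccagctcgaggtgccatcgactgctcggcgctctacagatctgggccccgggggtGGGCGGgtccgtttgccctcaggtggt
Taldo1 (chr7:141391910-141392159, plus strand): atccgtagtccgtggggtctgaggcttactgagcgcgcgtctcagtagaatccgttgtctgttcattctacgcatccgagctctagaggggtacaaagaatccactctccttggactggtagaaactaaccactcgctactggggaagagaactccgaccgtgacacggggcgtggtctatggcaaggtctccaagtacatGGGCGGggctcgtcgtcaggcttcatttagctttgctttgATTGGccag
Pgls (chr8:71591934-71592175, plus strand): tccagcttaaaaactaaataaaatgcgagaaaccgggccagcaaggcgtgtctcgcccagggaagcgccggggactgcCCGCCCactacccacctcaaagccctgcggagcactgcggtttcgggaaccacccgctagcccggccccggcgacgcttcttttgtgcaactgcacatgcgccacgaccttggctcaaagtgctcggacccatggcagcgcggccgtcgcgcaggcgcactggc
Idh2 (chr7:80115393-80115600, minus strand): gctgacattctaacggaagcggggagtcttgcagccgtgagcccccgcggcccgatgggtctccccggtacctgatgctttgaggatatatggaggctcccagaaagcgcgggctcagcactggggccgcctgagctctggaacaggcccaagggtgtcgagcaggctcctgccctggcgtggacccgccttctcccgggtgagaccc
G6pdx (chrX:74428919-74428947, minus strand): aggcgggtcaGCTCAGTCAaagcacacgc

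These letters are a description and not a set of binding sites. The GC box was found in the 250 bases of 27 of the 35 genes with an entry (77.1%), against 32.7% of 32851 promoters of all genes, and CCAAT in 14 (40%), against 33.8%. These sets are unlike. Each of the 35 genes has 1 promoter here, its most upstream, while the 32851 hold every listed promoter of all genes, expressed or not. TGACNNNGC was present for Idh3g, Dlst, Sucla2 and G6pdx, 4 of 35 (11.4%), against 10.2% of all promoters. CACGTG was present for Pcx alone, 1 of 35 (2.86%), against 6.02%. Pgd and Taldo1 share a GC box in the stretches shown, as does Pgls, which had the opposite order of values, and the stretch shown for Idh2 holds none of the 4 motifs. The full 250 bases of Idh2, partly in exons, hold both a GC box and CCAAT.

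In the Gr-1+ CD11b+ library against DC and against macrophages, the pentose phosphate pathway was the one whose steps differed most from one another. Between DC and macrophages, its genes above the silent-gene level in both ranged from -1.22 (Pgd) to 0.17 (Pgls). The TCA genes ranged more widely there, from -1.36 (Idh1) to 0.99 (Suclg2). The entry enzyme of the pentose phosphate pathway is G6pdx, glucose-6-phosphate dehydrogenase, which makes the first NADPH. G6pdx was at 151 FPKM in the Gr-1+ CD11b+ library, 39.4 in DC and 71.7 in macrophages. Pgd, 6-phosphogluconate dehydrogenase, which makes the second NADPH, was at 149 FPKM in the Gr-1+ CD11b+ library, 33.9 in DC and 80.4 in macrophages. Both NADPH-forming steps thus had their highest value in the Gr-1+ CD11b+ library and their lowest in DC, at nearly equal levels within each library. Pgls, the lactonase that acts between them, had the reverse order, with 29.5 FPKM in the Gr-1+ CD11b+ library, 163 in DC and 145 in macrophages.

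Pgd passed the size rule as higher in the Gr-1+ CD11b+ library than in DC, its difference being 2.11. The 95% interval of its log2 ratio from counting error alone, computed from about 759 and 614 estimated fragments, was 1.99 to 2.30. G6pdx was just under the rule against DC, with a difference of 1.91 (counting interval 1.80 to 2.07), and reached 1.06 against macrophages. Pgls was lower in the Gr-1+ CD11b+ library by the rule against both, with differences of -2.43 from DC (-2.86 to -2.11) and -2.26 from macrophages (-2.69 to -1.93). Its value in the Gr-1+ CD11b+ library rested on about 63 fragments. With another scaling or pseudocount some of these calls ended: that of Pgd with equal sums or a pseudocount of 10, that of Pgls against DC with equal 75th percentiles, and that of Pgls against macrophages with equal 75th percentiles or a pseudocount of 10. Of the counting intervals, that of Pgls against DC lies wholly beyond the limit of 2, and the others include it. Pgls lies on chromosome 8 at 71592176 to 71601092 and overlaps Fam129c on the same strand, a gene at 0 FPKM in the Gr-1+ CD11b+ library, 12.7 in DC and 1.48 in macrophages. G6pdx lies on chromosome X at 74409483 to 74429194 and Pgd on chromosome 4 at 149149991 to 149166771, both on the minus strand (GENCODE M21, GRCm38). G6pd2, an intronless copy of G6pdx whose reads may be shared with it, was listed at 3.88 FPKM in the Gr-1+ CD11b+ library, 0 in DC and 0.615 in macrophages, and is named here after its values were seen.

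In the non-oxidative branch, Taldo1, the transaldolase gene, was the most abundant of the 37 genes in the Gr-1+ CD11b+ library and macrophages, at 1006 FPKM in the Gr-1+ CD11b+ library, 326 in DC and 506 in macrophages. Its difference was 1.62 from DC and 0.99 from macrophages, under the size rule. Tkt, the transketolase that works in the same branch, was instead highest in macrophages, at 72.0 FPKM in the Gr-1+ CD11b+ library, 82.3 in DC and 119 in macrophages. Taldo1 made up the largest part of the pathway's summed FPKM, 70.9% in the Gr-1+ CD11b+ library, 49.6% in DC and 54.0% in macrophages. Rpe, the epimerase, was at 11.6, 10.9 and 15.5 FPKM in the Gr-1+ CD11b+ library, DC and macrophages, close to the silent-gene level of the Gr-1+ CD11b+ library. Rpia, the isomerase that makes ribose 5-phosphate, was at 0.253 FPKM in the Gr-1+ CD11b+ library, 2.05 in DC and 0.187 in macrophages, or about 1, 30 and 2 fragments. It exceeded the silent-gene level in DC alone, so its values in the other libraries are not read as expression.

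The pathway's sums were 1420 FPKM in the Gr-1+ CD11b+ library, 658 in DC and 937 in macrophages, or 0.164%, 0.0986% and 0.107% of all FPKM. The 3 oxidative genes summed to 329 FPKM in the Gr-1+ CD11b+ library, 237 in DC and 297 in macrophages, and the 4 non-oxidative genes to 1090.1, 422 and 640.1. A sum over genes follows its most abundant member, here Taldo1.

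**Figure D1:**
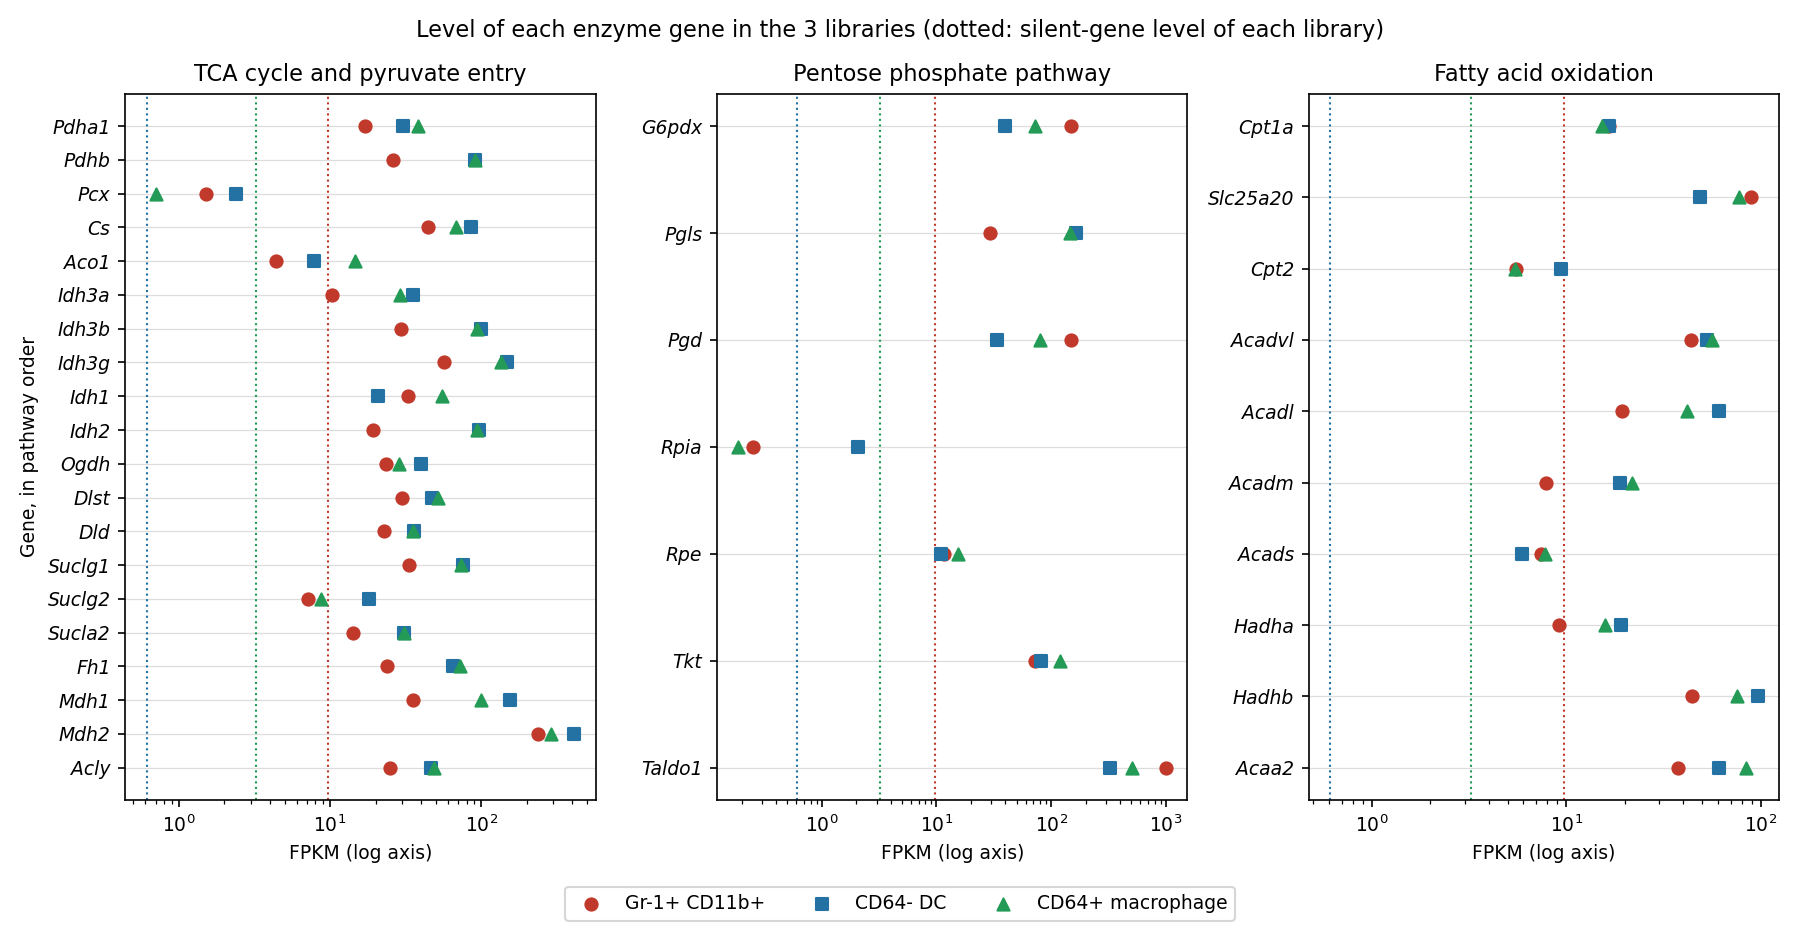
FPKM of each of the 37 genes (log axis) in the Gr-1+ CD11b+ library (circles), CD64- DC (squares) and CD64+ macrophages (triangles), 1 library each, with genes in pathway order and dotted lines at the silent-gene level of each library in the same colour. G6pdx, Pgd and Taldo1 lie furthest right in the Gr-1+ CD11b+ library, whereas Pgls and most TCA genes lie furthest left there.

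TCA cycle genes had lower values in the Gr-1+ CD11b+ library than in both other libraries for most steps. Their sums were 693 FPKM in the Gr-1+ CD11b+ library, 1547 in DC and 1357 in macrophages. Of the 20 genes, 19 had a lower value in the Gr-1+ CD11b+ library than in DC, all but Idh1, and 19 had a lower value than in macrophages, all but Pcx. None of the 20 was highest in the Gr-1+ CD11b+ library, while 13 were highest in DC and 7 in macrophages. That split between DC and macrophages holds near ties, such as Dld at 35.8 and 35.6 FPKM. The sign of this difference varied with the scaling for Pdha1, Pdhb, Idh2, Idh3b, Idh3g, Dlst, Dld, Suclg1, Sucla2, Fh1 and Acly. Lower values in the Gr-1+ CD11b+ library were not particular to these genes. Over all genes with a mean of 10 FPKM or more, the median difference of that library was -0.87 from DC and -0.81 from macrophages.

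Pyruvate enters the cycle by the pyruvate dehydrogenase complex or by pyruvate carboxylase. Pdha1 and Pdhb, the subunits of the E1 component of the complex, differed in their spread. Pdha1 was at 17.0 FPKM in the Gr-1+ CD11b+ library, 30.3 in DC and 38.0 in macrophages, and Pdhb at 26.1, 91.5 and 90.3. The differences of Pdhb, -1.77 from DC and -1.76 from macrophages, were larger than those of Pdha1, -0.80 and -1.11, though both genes encode parts of 1 tetramer. Pcx, pyruvate carboxylase, which refills the cycle with oxaloacetate, was at 1.51 FPKM in the Gr-1+ CD11b+ library, 2.39 in DC and 0.707 in macrophages. It exceeded the silent-gene level in DC alone.

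The citrate-forming and citrate-using steps came next. Cs, citrate synthase, was at 44.3 FPKM in the Gr-1+ CD11b+ library, 85.2 in DC and 67.9 in macrophages. Aco1, the cytosolic aconitase that also acts as an iron-responsive RNA-binding protein, was at 4.42 FPKM in the Gr-1+ CD11b+ library, 7.89 in DC and 14.5 in macrophages. Aco1 was thus highest in macrophages, unlike Cs. Acly, the cytosolic enzyme that splits citrate to acetyl-CoA for lipid synthesis and acetylation, was at 25.1, 46.6 and 48.8 FPKM in the Gr-1+ CD11b+ library, DC and macrophages.

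The isocitrate dehydrogenases divided by isoform. The NAD-dependent mitochondrial enzyme is built from the products of Idh3a, Idh3b and Idh3g. Idh3a was at 10.3 FPKM in the Gr-1+ CD11b+ library, 35.1 in DC and 29.1 in macrophages. Idh3b was at 29.3, 100.4 and 93.8 FPKM in the same libraries, and Idh3g at 56.5, 149 and 135. The subunits kept their order, Idh3g over Idh3b over Idh3a, in each library. Idh3b overlaps Nop56 on the opposite strand, a gene at 16.6 FPKM in the Gr-1+ CD11b+ library, 151 in DC and 64.8 in macrophages, and without strand information their reads cannot be told apart where they overlap.

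The NADP-dependent enzymes, which make NADPH rather than NADH, had different orders of values. Idh2, the mitochondrial form, was at 19.3 FPKM in the Gr-1+ CD11b+ library, 96.0 in DC and 93.6 in macrophages. It was lower in the Gr-1+ CD11b+ library by the size rule against both, with differences of -2.25 (counting interval -2.67 to -1.98) and -2.22 (-2.63 to -1.93), both intervals including the limit. Both calls ended with equal 75th percentiles or a pseudocount of 10, and the one against macrophages also with median ratios. Idh1, the cytosolic form, was at 32.8 FPKM in the Gr-1+ CD11b+ library, 20.8 in DC and 54.8 in macrophages. Idh1 was the TCA gene with the largest difference between DC and macrophages, -1.36, which did not reach the rule. The mitochondrial form was thus nearly equal in DC and macrophages, and the cytosolic form was not. Idh2 lies on chromosome 7 at 80094846 to 80115392 on the minus strand.

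The 2-oxoglutarate dehydrogenase complex consists of Ogdh (E1), Dlst (E2) and Dld (E3), the last shared with pyruvate dehydrogenase. Ogdh was at 23.5 FPKM in the Gr-1+ CD11b+ library, 40.2 in DC and 28.4 in macrophages. Dlst was at 29.9, 47.4 and 52.1 FPKM in the same libraries, and Dld at 22.7, 35.8 and 35.6. Their differences between the Gr-1+ CD11b+ library and DC, from -0.75 to -0.63, were among the smaller of the cycle. For succinyl-CoA synthetase, Suclg1, the shared alpha subunit, was at 33.5 FPKM in the Gr-1+ CD11b+ library, 75.7 in DC and 73.9 in macrophages. Sucla2, the ATP-forming beta subunit, was at 14.1, 30.7 and 30.8 FPKM, and Suclg2, the GTP-forming one, at 7.14, 18.1 and 8.65. Suclg2 separated DC from macrophages by a difference of 0.99, where Sucla2 did by -0.01.

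At the end of the cycle, Fh1, fumarate hydratase, was at 23.9 FPKM in the Gr-1+ CD11b+ library, 64.8 in DC and 72.2 in macrophages. It overlaps Kmo on the opposite strand, which was at 3.62, 48.1 and 19.5 FPKM. Mdh2, the mitochondrial malate dehydrogenase, was the most abundant TCA gene in each library, at 237 FPKM in the Gr-1+ CD11b+ library, 413 in DC and 289 in macrophages. Mdh1, the cytosolic form that serves the malate-aspartate shuttle, was at 35.3 FPKM in the Gr-1+ CD11b+ library, 156 in DC and 100.3 in macrophages. Mdh1 was lower in the Gr-1+ CD11b+ library than in DC, past the size rule at -2.12 (counting interval -2.37 to -1.92), while its difference of -1.48 from macrophages did not reach it. That interval too includes the limit, and the call ended with median ratios, equal 75th percentiles or a pseudocount of 10. Mdh1 lies on chromosome 11 at 21556787 to 21572367 on the minus strand.

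Of the 10 fatty acid oxidation genes, 0 passed the size rule in any comparison, a count that the shares over all genes, 1.41% to 6.28%, would also give for so short a list. Its sums were 280.4 FPKM in the Gr-1+ CD11b+ library, 389.9 in DC and 401.2 in macrophages. In the carnitine shuttle, Cpt1a, the regulated entry enzyme of the outer membrane, was at 16.6 FPKM in the Gr-1+ CD11b+ library, 16.7 in DC and 15.3 in macrophages. In the deposited values Cpt1a was the member with the narrowest spread over the libraries. With equal 75th percentiles its difference in the Gr-1+ CD11b+ library was 0.72 from DC and 0.68 from macrophages. Slc25a20, which carries acylcarnitines across the inner membrane, was at 89.2, 48.9 and 77.4 FPKM in the Gr-1+ CD11b+ library, DC and macrophages. It was the one member of this pathway with its highest value in the Gr-1+ CD11b+ library. Cpt2, which reforms acyl-CoA inside, was at 5.54 FPKM in the Gr-1+ CD11b+ library, 9.43 in DC and 5.45 in macrophages, the first of these under the silent-gene level of its library.

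The acyl-CoA dehydrogenases act on chains of different length. Acadvl, for very long chains, was at 43.5 FPKM in the Gr-1+ CD11b+ library, 52.7 in DC and 55.9 in macrophages. Acadl, for long chains, was at 19.3, 60.8 and 41.8 FPKM in the same libraries, and its differences from DC and macrophages were -1.61 and -1.08. Acadm, for medium chains, was at 7.89 FPKM in the Gr-1+ CD11b+ library, 18.95 in DC and 21.8 in macrophages. Acads, for short chains, was at 7.38, 5.92 and 7.74 FPKM, without the lower value in the Gr-1+ CD11b+ library that Acadl and Acadm had. Both Acadm and Acads lay under the silent-gene level of the Gr-1+ CD11b+ library.

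The last steps are carried out by the trifunctional protein, encoded by Hadha and Hadhb, and by a thiolase. Hadha was at 9.14 FPKM in the Gr-1+ CD11b+ library, 19.1 in DC and 15.9 in macrophages, and Hadhb at 44.4, 96.5 and 75.6. The 2 genes, which lie side by side on chromosome 5 in opposite orientation, kept nearly the same ratio in all 3 libraries. Hadha lay under the silent-gene level of the Gr-1+ CD11b+ library, so the ratio there is less certain. Acaa2, the mitochondrial 3-ketoacyl-CoA thiolase, was at 37.4 FPKM in the Gr-1+ CD11b+ library, 60.8 in DC and 84.3 in macrophages. The most abundant step was Slc25a20 in the Gr-1+ CD11b+ library, Hadhb in DC and Acaa2 in macrophages.

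**Figure D2:**
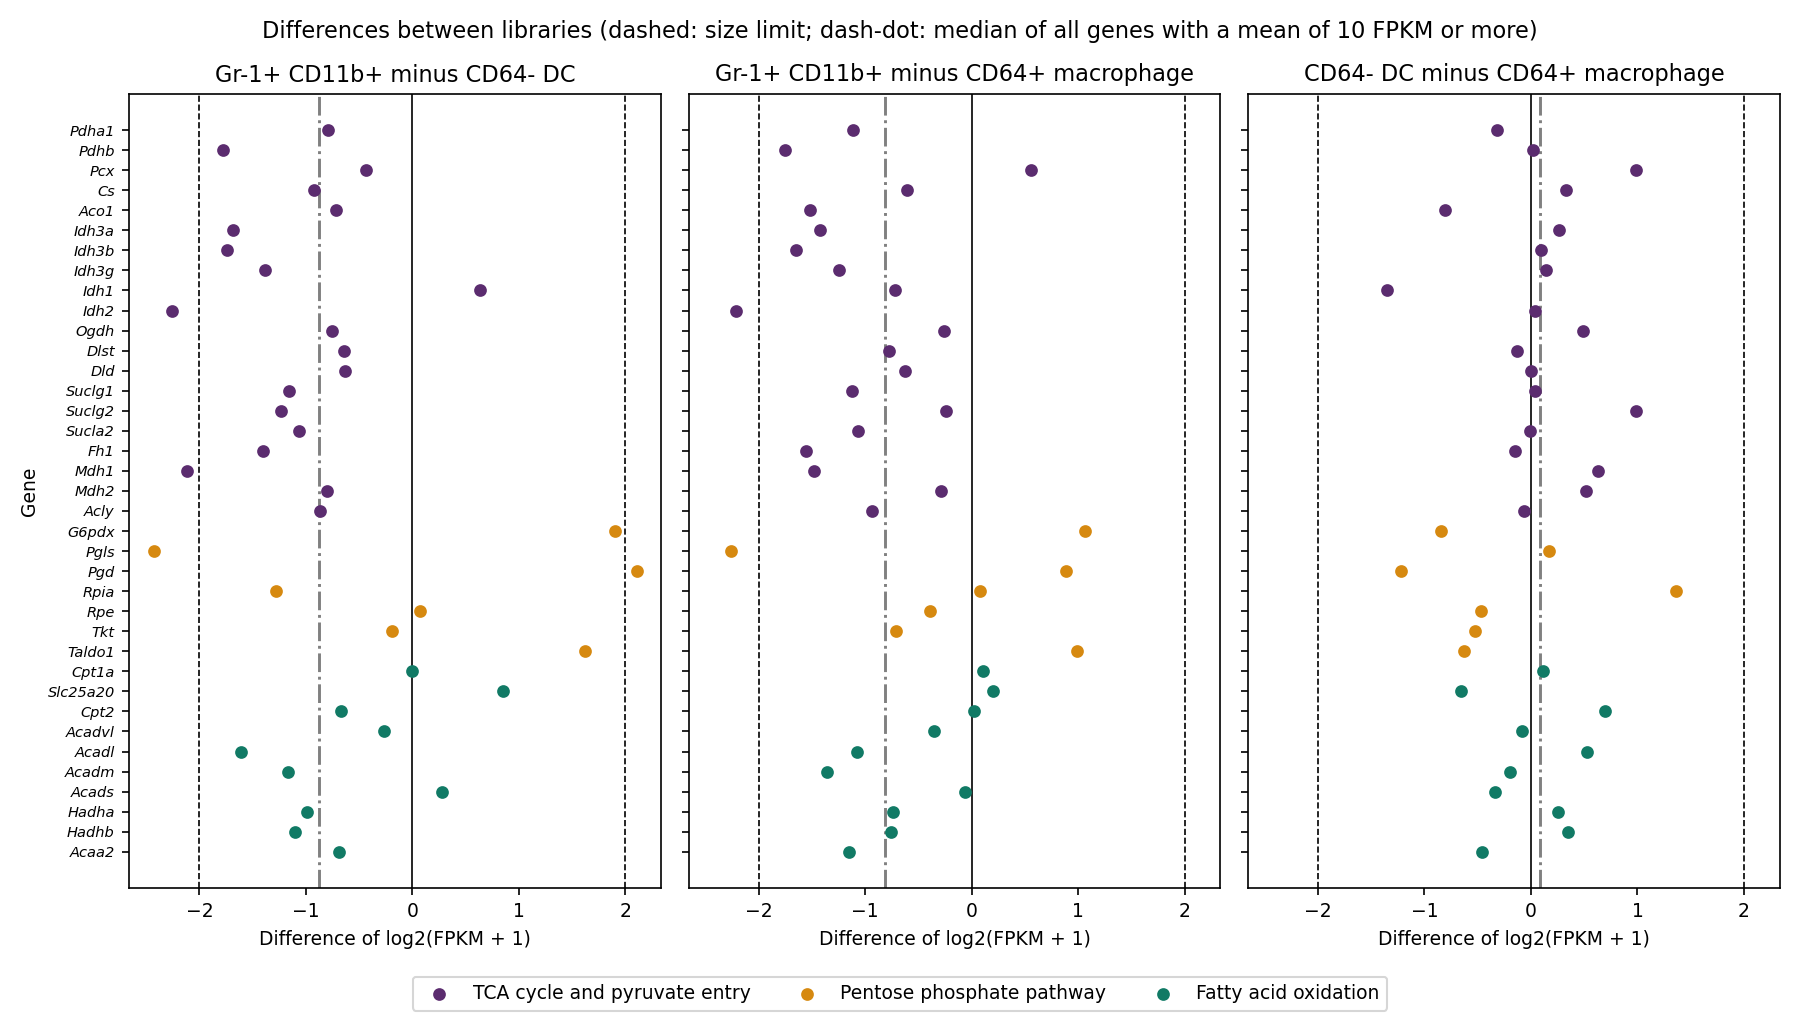
Difference of log2(FPKM + 1) for each gene in the 3 comparisons, coloured by pathway, with dashed lines at the size limit of 2 and a dash-dot line at the median of all genes with a mean of 10 FPKM or more. Pgd at 2.11 lies beyond the limit on the right in the Gr-1+ CD11b+ library against DC, and Idh2, Mdh1 and Pgls lie beyond it on the left, while no gene passes it in DC against macrophages.

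Counted over all 37 genes, the Gr-1+ CD11b+ library had 1 higher than DC by the size rule (2.70%), against 3.65% of the 17329 genes compared, and 3 lower (8.11%), against 6.28%. Compared with macrophages, 0 were higher, against 1.41% of all genes, and 2 were lower (5.41%), against 3.41%. For DC against macrophages 0 were higher and 0 lower, against 1.53% and 2.31%. Of the 37 genes, 32 had a mean of 10 FPKM or more. Among the 5639 genes at that level, 7.52% were higher and 15.1% lower in the Gr-1+ CD11b+ library than in DC, and 3.19% and 9.43% than in macrophages. Both shares of lower members, taken over all 37, thus lay above those over all genes. They lay below those over genes with a mean of 10 FPKM or more, on counts of 3 and 2.

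Pathway medians were read the same way. The median difference over all compared genes was 0.01 for the Gr-1+ CD11b+ library against DC, 0.10 against macrophages and -0.05 for DC against macrophages. Over genes with a mean of 10 FPKM or more it was -0.87, -0.81 and 0.09. This second set was added after the values were seen. The 20 TCA genes had medians of -0.997, -1.09 and 0.04 in these comparisons, and the 10 fatty acid oxidation genes -0.68, -0.54 and 0.02. The lower TCA values in the Gr-1+ CD11b+ library thus lay within 0.28 of the median of genes with a mean of 10 FPKM or more. The pentose phosphate genes had medians of 0.08, 0.08 and -0.52, but their middle value against macrophages was that of Rpia. Without Rpia they were 0.85, 0.25 and -0.58. The 0.85 lay midway between Rpe at 0.08 and Taldo1 at 1.62, with no gene of the list between them.

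The sign of some medians turned with how the libraries were scaled. The median of all genes itself moved, for the Gr-1+ CD11b+ library against DC, to -0.27 with equal sums, 0.22 with median ratios and 0.62 with equal 75th percentiles. With equal 75th percentiles, the fatty acid oxidation medians were 0.03 against DC and 0.04 against macrophages for the Gr-1+ CD11b+ library. With equal sums the pentose phosphate median against DC was -0.27 with Rpia and 0.49 without it. Both the TCA and fatty acid oxidation medians of DC against macrophages were positive with equal sums, at 0.42 and 0.39, and negative with equal 75th percentiles, at -0.13 and -0.15. Over every setting tried, the TCA median was negative for the Gr-1+ CD11b+ library, between -1.36 and -0.25 against DC and between -1.19 and -0.52 against macrophages.

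Taken relative to the genes with a mean of 10 FPKM or more, the pathways can be set beside each other with little effect of the scaling. A scaling moves all but low genes of a comparison nearly alike. The exception was the pentose phosphate list with Rpia in the Gr-1+ CD11b+ library against macrophages. It stood at 0.89 as deposited and 0.45 with equal 75th percentiles. As deposited, all 7 pentose phosphate genes stood 0.95 above that median in the Gr-1+ CD11b+ library against DC. They stood 0.89 above it against macrophages and at -0.61 for DC against macrophages. Without Rpia, left out after the data were seen, they stood at 1.72, 1.06 and -0.66. The 1.72 rests on a midpoint between Rpe and Taldo1, with no gene of the list between them. The fatty acid oxidation genes stood at 0.19, 0.27 and -0.07, and the TCA genes at -0.12, -0.28 and -0.05. For context, 36 respiratory chain and ATP synthase genes stood at -0.40, -0.41 and -0.09, and 18 glycolysis genes at 1.54, 0.68 and -0.83. These are descriptions of 3 libraries.

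**Figure D3:**
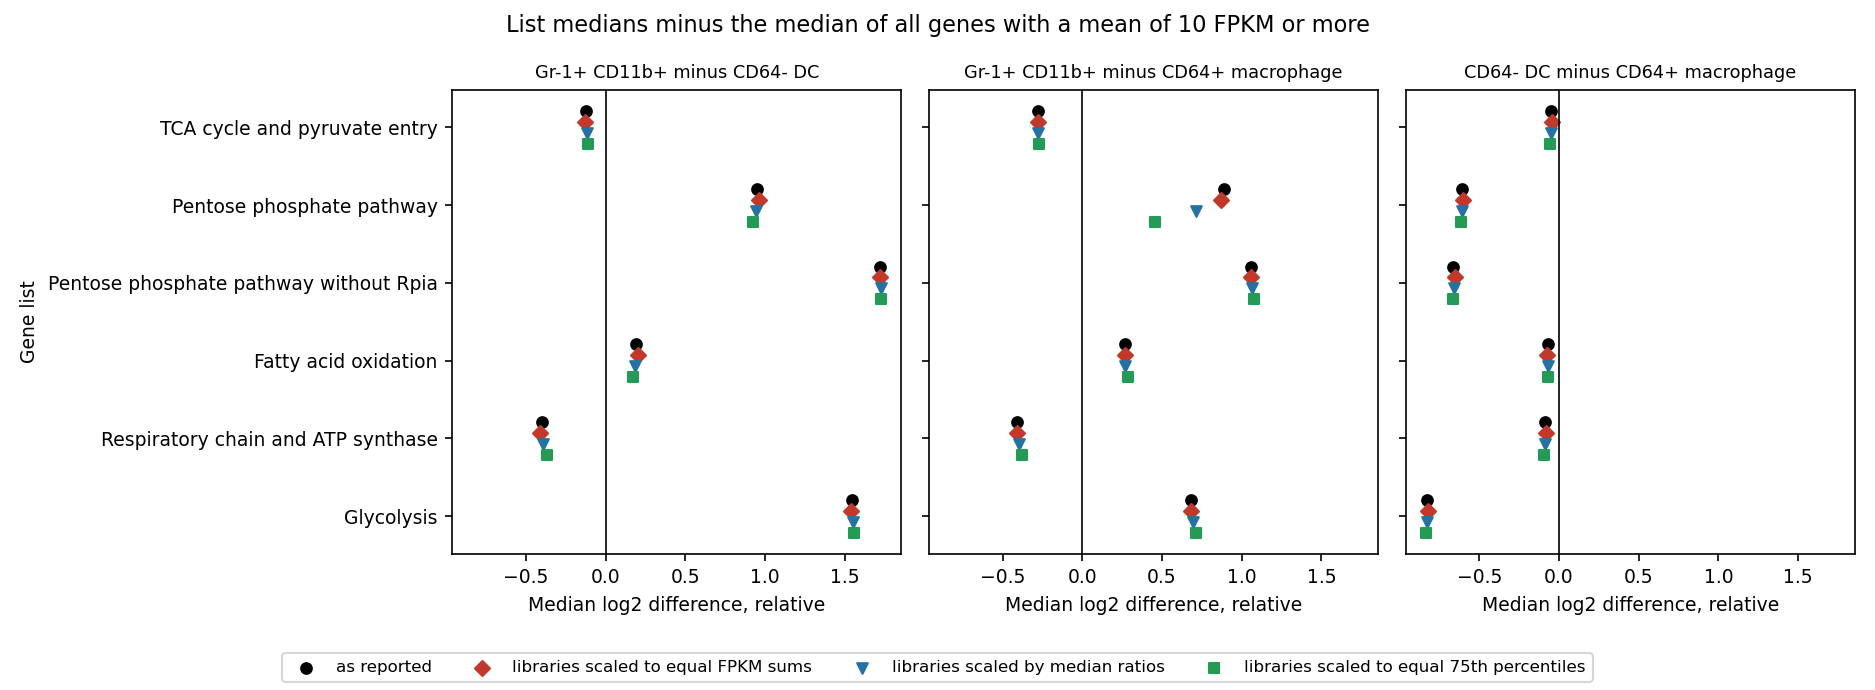
Median difference of each gene list minus the median of all genes with a mean of 10 FPKM or more, on the log2 scale. Values are as deposited and under 3 scalings of the libraries, for each comparison. The scalings nearly coincide, except for the pentose phosphate list with Rpia in the Gr-1+ CD11b+ library against macrophages. That list is at 0.89 as deposited and 0.45 with equal 75th percentiles. The TCA and respiratory chain lists lie left of 0 for the Gr-1+ CD11b+ library, at -0.12 and -0.40 against DC as deposited, and the pentose phosphate and glycolysis lists lie right of it in the same comparisons.

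Ratios of 2 genes within 1 library do not depend on its scaling, beyond the pseudocount, and 17 such pairs of partner enzymes were followed. Of these, 8 ranged over 1 or more on the log2 scale across the libraries and 9 over less than 1. Acadvl over Acadm, at 1.01, and Suclg2 over Sucla2, at 0.99, lay close to that limit, so the split depends on the pseudocount. With a pseudocount of 10, 18 differences of a pair ratio between libraries moved by at least the median half-width of the members' counting intervals, and 33 did not. The widest range was that of Pgd over Pgls, the oxidative pentose phosphate pair, with a log2 ratio of 2.30 in the Gr-1+ CD11b+ library, -2.24 in DC and -0.84 in macrophages. In FPKM, Pgd was 5.07 times Pgls in the Gr-1+ CD11b+ library, while Pgls was 4.82 times Pgd in DC and 1.80 times Pgd in macrophages. Cytosolic Idh1 over mitochondrial Idh2 came next, at 0.73 in the Gr-1+ CD11b+ library, -2.15 in DC and -0.76 in macrophages. Idh1 therefore exceeded Idh2 in the Gr-1+ CD11b+ library and was the lower of the pair in the other libraries.

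Malate dehydrogenase had the opposite order. Mdh1 over Mdh2 was -2.71 in the Gr-1+ CD11b+ library, -1.40 in DC and -1.52 in macrophages, so the share of the cytosolic form was smallest in the Gr-1+ CD11b+ library, where that of Idh1 was largest. Tkt over Taldo1 was -3.79, -1.97 and -2.08 in the same libraries. Suclg2 over Sucla2 was -0.90 in the Gr-1+ CD11b+ library, -0.73 in DC and -1.72 in macrophages, a range of 0.99. Suclg2 lay under the silent-gene level of the Gr-1+ CD11b+ library, so this ratio is read between DC and macrophages only. Acads over Acadl, Rpe over Rpia, Pcx over Pdha1 and Acadvl over Acadm ranged over more than 1, each with a member at or under the silent-gene level in at least 1 library.

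The narrowest ranges were those of Hadha over Hadhb and of the Idh3 subunits. Hadha over Hadhb was -2.16 in the Gr-1+ CD11b+ library, -2.28 in DC and -2.18 in macrophages. The first of these rests on a Hadha value under the silent-gene level of its library. Idh3a over Idh3b was -1.43, -1.49 and -1.65, and Idh3a over Idh3g -2.35, -2.05 and -2.17. Pgd over G6pdx, the 2 dehydrogenases of the oxidative branch, was -0.01 in the Gr-1+ CD11b+ library, -0.21 in DC and 0.16 in macrophages. Not all subunit pairs were this close, since Pdha1 over Pdhb was -0.59, -1.56 and -1.23, and Suclg2 over Sucla2 ranged over 0.99. Dlst over Ogdh, Acly over Cs and Cpt1a over Cpt2 ranged over 0.62, 0.39 and 0.67, with Cpt2 under the silent-gene level of the Gr-1+ CD11b+ library.

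**Figure D4:**
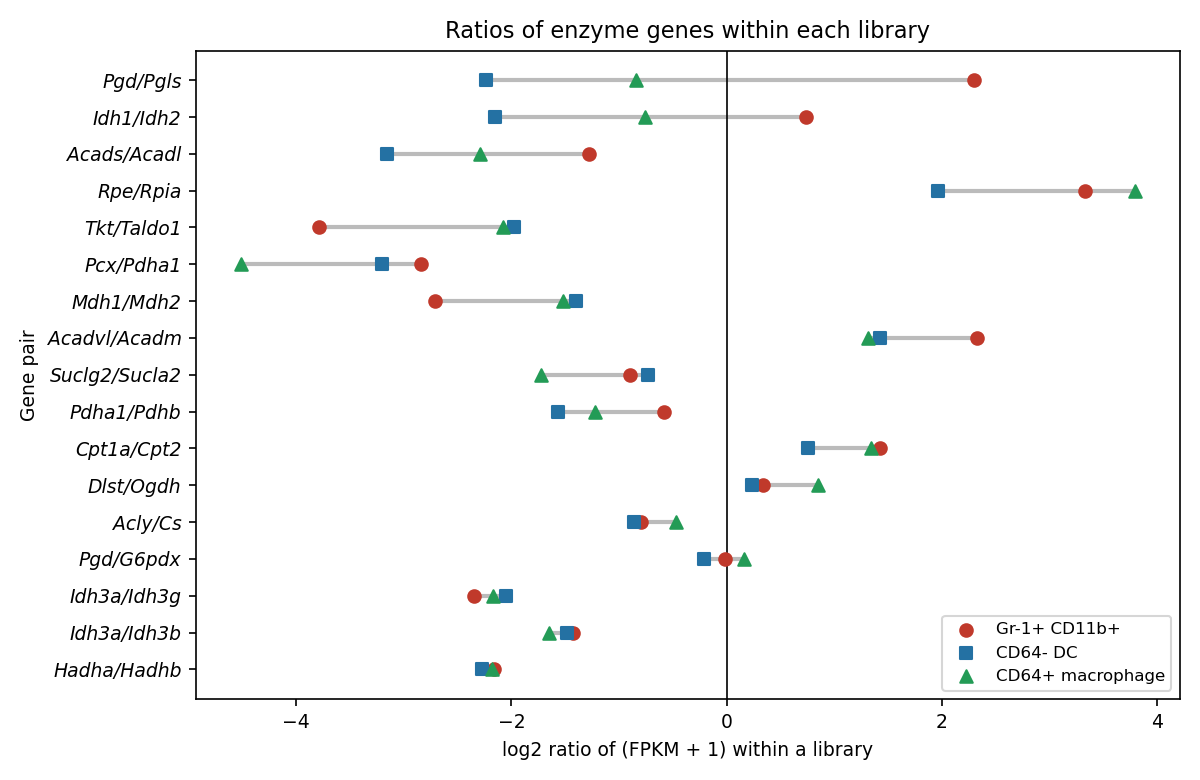
log2 ratio of (FPKM + 1) of 2 genes within each library, for 17 pairs ordered by their range over the 3 libraries, with circles for the Gr-1+ CD11b+ library, squares for CD64- DC and triangles for CD64+ macrophages. Pgd/Pgls and Idh1/Idh2 are above 0 in the Gr-1+ CD11b+ library (2.30 and 0.73) and below 0 in the others, while Hadha/Hadhb and the Idh3 subunits barely spread.

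Between DC and macrophages, the pair with no call, the largest differences among members above the silent-gene level in both libraries were those of Idh1, at -1.36, and Pgd. Suclg2 had the largest in the other direction, at 0.99. All 5 pentose phosphate genes other than Pgls and Rpia had lower values in DC, with Pgd at -1.22, G6pdx at -0.85, Taldo1 at -0.63, Tkt at -0.52 and Rpe at -0.47. These 5 and Aco1, Idh1, Slc25a20 and Acaa2 had a negative difference under every setting tried. Another 13 had a positive one under every setting, among them Mdh1 at 0.63, Mdh2 at 0.52, Ogdh at 0.49 and Acadl at 0.53. The sign of the other 15 varied with the scaling.

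Other genes of these pathways were set beside the same shares of all genes. Of 30 other genes of the TCA cycle and its supply, 0 were higher and 2 lower in the Gr-1+ CD11b+ library than in DC, where 3.65% and 6.28% of all genes were, and 0 and 1 than in macrophages, where 1.41% and 3.41% were. These counts are near the shares over all genes. Got1, the cytosolic aspartate aminotransferase that works with Mdh1 in the malate-aspartate shuttle, was lower against both, at 28.2 FPKM in the Gr-1+ CD11b+ library, 127 in DC and 306 in macrophages. Pck2, mitochondrial phosphoenolpyruvate carboxykinase, was lower than in DC, at 3.59 FPKM in the Gr-1+ CD11b+ library, 18.6 in DC and 5.21 in macrophages, with the first value under the silent-gene level of its library. Also among the 4 most abundant of this list were the succinate dehydrogenase subunits Sdhb, at 129, 216 and 299.7 FPKM in the Gr-1+ CD11b+ library, DC and macrophages, and Sdhd, at 142, 135 and 237. Mpc1, a subunit of the mitochondrial pyruvate carrier and another of the 4, was at 152 FPKM in the Gr-1+ CD11b+ library, 252 in DC and 267 in macrophages. Sdhd was the one of these with as high a value in the Gr-1+ CD11b+ library as in DC.

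Among 8 other expressed pentose phosphate genes, Prps1, which makes phosphoribosyl pyrophosphate from ribose 5-phosphate, was the 1 lower in the Gr-1+ CD11b+ library than in DC (6.28% of all genes were), at 7.39 FPKM in the Gr-1+ CD11b+ library, 33.96 in DC and 18.7 in macrophages. Its relative Prps2 was at 3.11, 9.91 and 3.998 FPKM, the ribokinase gene Rbks at 8.75, 8.69 and 16.5, and Pgm2 at 20.8, 15.6 and 18.5. Prps1, Prps2 and Rbks lay under the silent-gene level in the Gr-1+ CD11b+ library. Of 31 other expressed fatty acid oxidation genes, 1 was called, Cd36, a fatty acid uptake receptor, at 6.56 FPKM in the Gr-1+ CD11b+ library, 13.6 in DC and 32.0 in macrophages, lower than in macrophages, where 3.41% of all genes were. Its value in the Gr-1+ CD11b+ library lay under the silent-gene level. The electron transfer flavoprotein subunits Etfa and Etfb, which take electrons from the acyl-CoA dehydrogenases, were at 28.7 and 62.9 FPKM in the Gr-1+ CD11b+ library, 74.9 and 140.8 in DC and 81.0 and 189 in macrophages. Hsd17b10 was at 35.1, 73.8 and 60.0 FPKM in the same libraries and the peroxisomal thiolase gene Acaa1a at 64.8, 62.3 and 108. None of these other genes was called in DC against macrophages.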

How the data were processed

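FPKM values for 24346 gene symbols were deposited by the authors, in a separate table for every library. Per the labels' protocols, total RNA was turned into cDNA by a SMART-Seq HT kit and into libraries by a Nextera kit. The submitters' processing notes name mm10 as the build and, as tools, Cufflinks 2.2.1, TopHat2 2.0.13, SAMtools 0.1.19 and Bowtie2 2.2.3; the annotation and filters are not given in the sources used here. Since FPKM is relative to the library, a few abundant transcripts lower all others, and the top 10 genes took 33.5% of the total in the Gr-1+ CD11b+ library, 15.0% in DC and 22.2% in macrophages.

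Values were used as deposited, with a pseudocount of 1 before log2, which understates differences of low genes. Comparisons took the 17329 genes that reached 1 FPKM in some library. Depth came from FPKM times effective length (length minus 220 nt) of single-transcript genes over 800 nt, of which 84.1%, 85.5% and 84.2% of low values in the Gr-1+ CD11b+ library, DC and macrophages lay within 0.2 of a whole multiple. Fragments per gene used the longest coding transcript in GENCODE M21 and are approximate. The 95% intervals (Clopper-Pearson on the fragments of both libraries) are of the plain FPKM ratio and address counting error only. They treat fragments as independent. Amplified fragments are not independent molecules, so the intervals can be too narrow even for counting error.

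The genes and lists were chosen with earlier results of these data known. All members are named; other pathway genes are named if past the size rule or among the 4 most abundant of their list. The 4 promoters and the G6pdx stretch were chosen after values were seen. The size rule and the depth estimate were tested on simulated data. Alternatives were pseudocounts of 0.1 and 10, floors of 1 and 30 FPKM, log2 limits of 1 and 3, scaling to equal sums, median ratios or 75th percentiles, and subtraction of the olfactory receptor median; leaving out Rpia was added after the data were seen. The libraries are not stated to be stranded, and 10 members overlap another protein-coding gene in the tables. Python 3.11.15, NumPy 2.4.6, pandas 2.3.3, SciPy 1.17.1 and matplotlib 3.10.9 were used.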

Additional observations from a re-analysis of the deposited data

How the results depend on the processing

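The numbers of members past the size rule did not move by more than 1.5 times with a pseudocount of 0.1, floors of 1 or 30 FPKM, or subtraction of the olfactory receptor median. For the Gr-1+ CD11b+ library against DC, the 1 higher gene became 2 with median ratios (Pgd and G6pdx), 3 with equal 75th percentiles (these and Taldo1), 0 with equal sums, 3 with a log2 limit of 1, and 0 with a limit of 3 or a pseudocount of 10. The 3 lower genes became 2 with median ratios, where Mdh1 lost its call, 0 with equal 75th percentiles, 6 with equal sums, 14 with a limit of 1, 0 with a limit of 3 and 1 with a pseudocount of 10. The share of all genes lower moved too, from 6.28% as reported to 4.28%, 2.10%, 10.5%, 18.6%, 1.38% and 1.78% under these settings in turn, and the share higher, 3.65% as reported, lay between 1.69% with a pseudocount of 10 and 6.45% with equal 75th percentiles for the settings that moved the higher count. Against macrophages, the 2 lower genes became 1 with median ratios, 0 with equal 75th percentiles, 15 with a limit of 1, and 0 with a limit of 3 or a pseudocount of 10, and the 0 higher genes became 1 with a limit of 1. The share of all genes lower was 3.41% as reported, 2.42% with median ratios, 1.39% with equal 75th percentiles, 15.1% with a limit of 1, 0.716% with a limit of 3 and 1.26% with a pseudocount of 10, and the share higher 4.72% with a limit of 1. For DC against macrophages, 2 were lower with a limit of 1, as were 5.69% of all genes. No called difference changed sign under these settings. Over all settings, 28 of 37 members kept the sign of their difference from DC in the Gr-1+ CD11b+ library, 28 their sign against macrophages, and 22 for DC against macrophages. The Gr-1+ CD11b+ library had the least depth and the highest silent-gene level, and its values under 9.69 FPKM are the least certain. No paired analysis was possible because each population had 1 library, and for the same reason no library could be left out.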
